A study of Mus musculus with 36 samples.

Results

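Genes for NF-κB subunits and for proteins that regulate NF-κB were followed in mouse liver over the first 6 h after an overdose of acetaminophen. The set was given as 10 gene symbols, and its members are all probe sets annotated to exactly 1 of them. These are 19 of the 45037 probe sets on the array that are not controls, and they cover 9 of the 10 genes. The subunit genes are Nfkb2, Rela and Relb. The IκB family is represented by Nfkbia, Nfkbie, Nfkbiz and Bcl3, and the ubiquitin regulators by Tnfaip3 and Birc3. The symbol Nfkb1 was not analysed here.

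NF-κB is a family of dimeric transcription factors held in the cytoplasm by inhibitory IκB proteins. Signals from receptors such as those for TNF, interleukin 1 and bacterial products activate the IκB kinase complex, which marks IκB for destruction and lets dimers such as that of RELA with the product of Nfkb1 enter the nucleus. A slower branch processes the NFKB2 precursor and acts mainly through RELB. Many target genes of NF-κB encode its own inhibitors, so that the response carries a feedback loop. In liver the pathway is known from resident macrophages and endothelial cells as well as hepatocytes, and for protecting hepatocytes from TNF-induced death.

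Total RNA from the liver of 36 mice was hybridised to Affymetrix arrays, with 1 array per mouse and 3 mice in each of 12 groups. The mice, of 4 inbred strains labelled SJL, SMJ, DBA and C57, had all fasted overnight, and those dosed received a single intraperitoneal injection of 300 mg/kg acetaminophen. Separate mice were sampled at 0 h (before any dose), 3 h and 6 h, and each mouse is named by its strain and its number in the labels, such as SJL39. In the series, SJL is the strain described as resistant to acetaminophen injury and the other 3 strains as sensitive. The labels give neither age nor sex, and no mice treated with vehicle were analysed here, so the time since fasting began and the drug cannot be told apart.

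Each value is a MAS5 signal, a linear intensity for 1 probe set scaled by array, with a trimmed mean of 150 on all 36 arrays. The number of arrays limits the precision. Over the 36 pairs of mice within a group, the correlation of log2 signals ran from 0.916, for SJL39 and SJL40 at 3 h, to 0.964. The hepatocyte marker Alb lay between 10884 and 28847 on every array. Of the T cell markers, Cd3d and Cd4 were above the median of all values, 30.8, on 0 arrays. Cd3g was above it on 2 arrays, Cd3e on 12 and Cd8a on 18. The 3′ to 5′ ratio of the actin control probe sets, a sign of RNA integrity, was 1.28 to 1.87 over all arrays. It was 1.59 to 1.87 in SJL at 0 h, 1.41 to 1.51 at 3 h and 1.33 to 1.64 at 6 h. In SMJ it was 1.51 to 1.67 at 0 h, 1.36 to 1.52 at 3 h and 1.28 to 1.41 at 6 h, and in DBA 1.69 to 1.82, 1.52 to 1.63 and 1.38 to 1.53. In C57 it was 1.55 to 1.76, 1.5 to 1.7 and 1.62 to 1.76. The ratio thus lay wholly below 0 h in SJL at 3 h, in SMJ at 6 h and in DBA at both times, and its part in the results was not tested.

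Sequences round the starts of these genes were searched for motifs. The set was named for NF-κB feedback, and the known targets of NF-κB include its own inhibitors. A κB match is thus not independent of the choice of members, and the shares below carry no test. RefSeq promoter windows of 300 bases, 250 before the start and 50 after it (build GRCm38.p6), were matched by symbol for 7 of the 10 genes. Relb, Nfkbiz and Nfkb1 have no entry. The κB consensus, the decamer to which NF-κB dimers bind, was searched on both strands. It was found in 5 of the 7 genes, against 9.55% of 27018 genes with a window. The matched genes were Nfkb2, Nfkbia, Nfkbie, Bcl3 and Tnfaip3. The windows of Rela and Birc3 held no match, which says only that these letters are not in these windows.

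The bases before the start are shown for the members whose matches lie there, 5′ to 3′ on the strand of the gene, with each κB match in capitals. They are Nfkb2 (chr19:46304487-46304736, + strand, the first of its 3 starts), Nfkbia (chr12:55492648-55492897, − strand), Nfkbie (chr17:45555450-45555699, + strand) and Tnfaip3 (chr10:19015411-19015660, − strand, the first of its 2 starts). For Bcl3 the match lies after the start, so 30 bases round it are shown (chr7:19822736-19822765, − strand).
Nfkb2: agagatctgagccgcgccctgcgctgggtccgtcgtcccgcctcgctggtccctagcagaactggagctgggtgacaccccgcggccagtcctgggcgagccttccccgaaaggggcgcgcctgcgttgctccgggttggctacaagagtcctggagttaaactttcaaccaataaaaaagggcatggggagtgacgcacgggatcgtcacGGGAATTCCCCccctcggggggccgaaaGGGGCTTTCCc
Nfkbia: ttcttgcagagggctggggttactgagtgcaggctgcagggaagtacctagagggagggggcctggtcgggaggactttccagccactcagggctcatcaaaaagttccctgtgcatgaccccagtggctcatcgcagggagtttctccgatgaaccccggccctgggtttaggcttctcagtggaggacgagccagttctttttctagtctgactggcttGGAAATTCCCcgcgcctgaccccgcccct
Nfkbie: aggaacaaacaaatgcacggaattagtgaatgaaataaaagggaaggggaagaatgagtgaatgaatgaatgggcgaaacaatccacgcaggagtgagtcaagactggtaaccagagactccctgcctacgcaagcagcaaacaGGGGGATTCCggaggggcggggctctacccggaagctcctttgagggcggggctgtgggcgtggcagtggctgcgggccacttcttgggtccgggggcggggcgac
Tnfaip3: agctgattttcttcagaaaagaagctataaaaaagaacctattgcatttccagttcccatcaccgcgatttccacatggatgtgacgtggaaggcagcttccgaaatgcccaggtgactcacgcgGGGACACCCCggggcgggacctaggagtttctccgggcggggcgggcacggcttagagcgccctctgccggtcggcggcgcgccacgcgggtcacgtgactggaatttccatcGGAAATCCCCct
Bcl3: agtcggcggcagGGGAAGTCCCgctgcccg

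Positions count the first transcribed base as 0. The single match of Nfkbia lay at -29 to -20 and read gggaatttcc on the opposite strand. In Nfkb2, matches that overlap one another covered -39 to -29, around a palindrome, and another lay at -11 to -2. Tnfaip3 had matches at -125 to -116 and -12 to -3, Nfkbie had 1 at -106 to -97, and Bcl3 had 1 at 2 to 11 that matched on both strands. All 3 windows of Nfkb2 held a match, though the other two windows overlap and share 1 site, while the other start of Tnfaip3 held none. The AP-1 heptamer TGANTCA, which occurs in the windows of 8.98% of genes, was found in Nfkbie, Tnfaip3 and the second window of Nfkb2. The STAT palindrome TTCNNNGAA, found in 9.55% of genes, was present in the first window of Nfkb2, and neither motif overlapped a κB match in these windows. A match describes the letters and is neither a binding site nor a cause of any change below, and no binding was measured here.

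**Figure D1:**
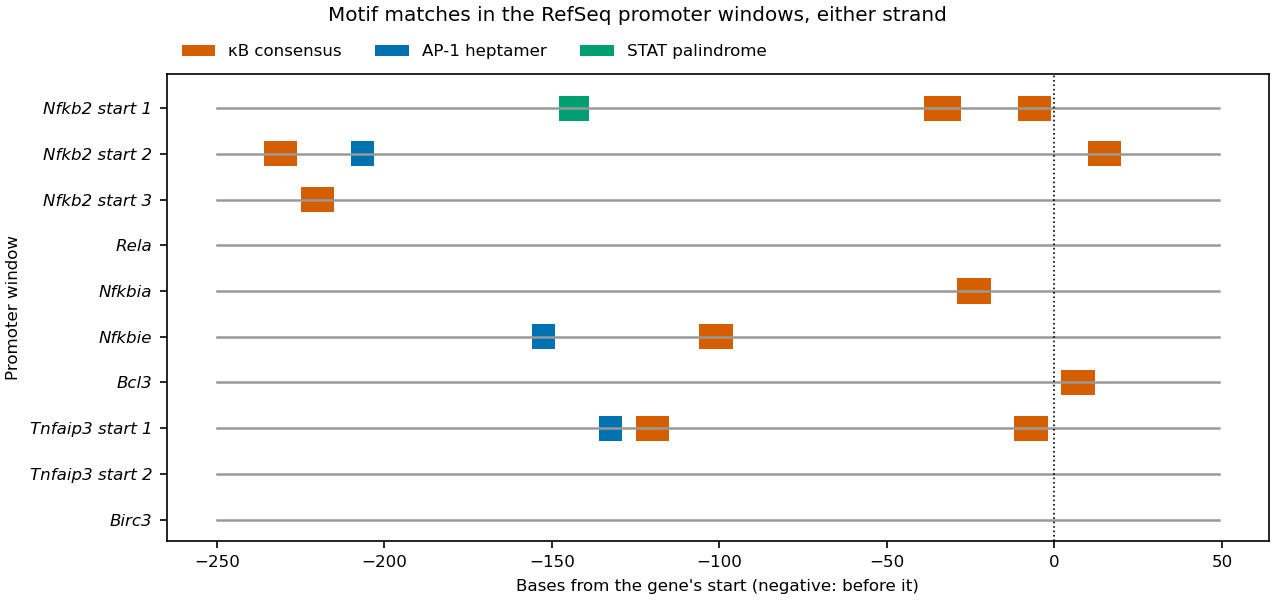
Each grey line is a RefSeq promoter window of 300 bases, 250 before the gene's start and 50 after it, and the x axis is the distance from that start in bases. Coloured blocks are matches on either strand: the κB consensus stands in 5 of the 7 genes drawn, and Nfkb2 carries it at each of its 3 starts.

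Nfkbiz, which encodes the nuclear IκB protein IκBζ, a co-activator of a subset of NF-κB target genes, rose in every strain by 6 h, and more than any other member then. SJL mice had signals of 269.5, 222 and 204 at 0 h, of 1302, 750.2 and 1094 at 3 h, and of 2316, 2511 and 2098 at 6 h. SMJ mice had 404, 182.4 and 159.6 at 0 h, 557, 662 and 984 at 3 h, and 823, 2004 and 1819.6 at 6 h. All 12 arrays at 3 h, and all 12 at 6 h, lay above the 3 arrays of their own strain at 0 h. DBA mice had 149, 201 and 133 at 0 h, 674, 646 and 377 at 3 h, and 1208, 1543 and 1369.6 at 6 h. C57 mice had 133, 147 and 87.2 at 0 h, 349, 257 and 343 at 3 h, and 2094, 1579 and 1047 at 6 h.

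As the mean of the 4 strains, Nfkbiz was 3.31-fold higher at 3 h (log2 change 1.73 ± 0.17 SE, limma with Benjamini-Hochberg adjusted p = 7.28e-08). It was 8.99-fold higher at 6 h (log2 3.17 ± 0.17, adjusted p = 2.2e-13), and it rose again between 3 h and 6 h (log2 1.44 ± 0.17, adjusted p = 2.21e-06). It was the only 1 of the 9 members that passed for the mean of strains at 3 h, where 3.16% of the 14057 genes tested passed as higher, and the only 1 between 3 h and 6 h, where 6.94% did. Within strains, it passed at 3 h in SJL (adjusted p = 1.58e-04), DBA (0.00339) and SMJ (0.0398). In C57 the log2 change at 3 h was 1.37 ± 0.34 with adjusted p = 0.112, although its 3 arrays did not overlap those at 0 h. The SMJ call at 3 h was lost when any 1 of 10 arrays was left out, namely SJL2, SMJ57, SMJ58, SMJ95, SMJ96, SMJ98, DBA166, DBA169, C57226 or C57231, with adjusted p from 0.0503 to 0.355.

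By 6 h every strain passed. C57 had the largest log2 change, 3.63, then SJL at 3.31, DBA at 3.09 and SMJ at 2.65, each ± 0.34 SE, with adjusted p between 7.76e-08 and 4.19e-06. The order of the mean signals at 6 h was SJL (2308 ± 206, SD, n = 3), C57 (1573 ± 523), SMJ (1549 ± 636) and DBA (1374 ± 167.6). C57 and SMJ differed by less than their SDs, the DBA arrays lay within the ranges of the SMJ and C57 arrays, and the lowest SJL array, 2098, was just above the highest of the other strains, 2094 in C57. Tested for a strain difference in its response, Nfkbiz gave adjusted p = 0.794 at 3 h and 0.504 at 6 h. All 3 Nfkbiz probe sets rose at 6 h for the mean of strains, by log2 3.17, 2.94 and 2.97.

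**Figure D2:**
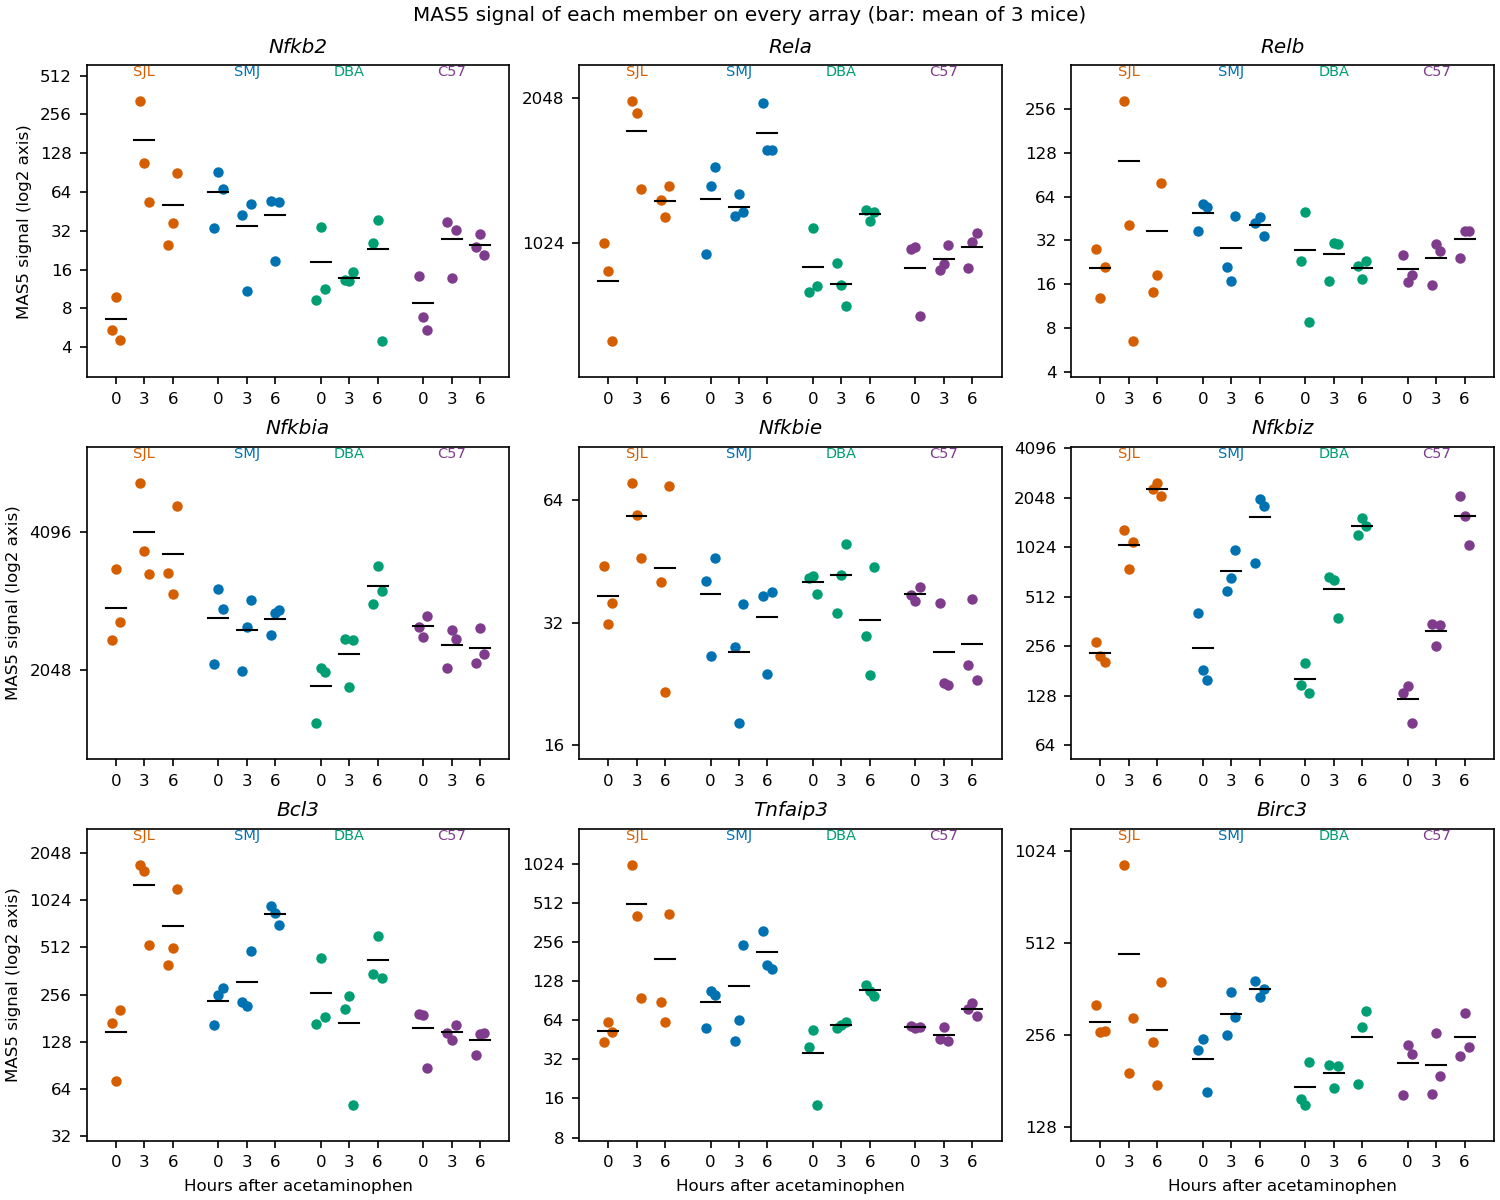
Each panel shows 1 member, with the MAS5 signal on a log2 axis against hours after acetaminophen for each strain; a point is 1 mouse and a bar the mean of 3. Nfkbiz climbs in all 4 strains. For Nfkb2, Bcl3, Tnfaip3 and Rela the highest point is 1 SJL mouse at 3 h, SJL39. For each of these genes another SJL mouse at 3 h, SJL42, lies below points of SMJ.

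Over all 9 members, 5 passed as higher and 0 as lower for the mean of strains at 6 h, where 12.7% of all genes passed as higher and 20.4% as lower, and 6 had an unadjusted p under 0.05 by limma. The median log2 change of the members was 0.396, beside -0.0468 over all genes tested. The 5 were Nfkbiz, Bcl3, Tnfaip3, Rela and Nfkbia. Nfkb2 (log2 0.80 ± 0.33, adjusted p = 0.0618), Birc3 (0.35 ± 0.18, 0.132), Relb (0.18 ± 0.37, 0.764) and Nfkbie (-0.20 ± 0.15, 0.338) did not pass. Without SJL39, a 3 h mouse that enters this contrast only through the shared estimate of the spread, Nfkb2 and Birc3 passed too, for 7 in all.

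Among the subunits, Rela encodes p65, which carries the transactivation domain of the classical dimer. Its signals in SJL were 1021, 891 and 637 at 0 h, 2018, 1909.7 and 1323 at 3 h, and 1258, 1160.4 and 1341 at 6 h. In SMJ they were 969, 1346 and 1469 at 0 h, 1165, 1292 and 1187 at 3 h, and 1998, 1596 and 1599.6 at 6 h. SJL was thus highest at 3 h and SMJ at 6 h. In DBA they were 808, 1099 and 829.7 at 0 h, 929, 834 and 755 at 3 h, and 1197, 1136 and 1185 at 6 h. In C57 all 9 arrays lay between 720.3 and 1074. The SJL groups at 3 h and 6 h did not overlap SJL at 0 h, the SMJ and DBA groups overlapped theirs at 3 h but not at 6 h, and C57 overlapped at both times. Rela was 2.06-fold higher in SJL at 3 h (log2 1.04 ± 0.18, adjusted p = 3.45e-04). For the mean of strains at 6 h it was 1.32-fold higher (log2 0.40 ± 0.09, adjusted p = 0.00105), a call kept under all 47 alternatives tried.

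Nfkb2 encodes the p100 precursor of p52, itself an inhibitor until it is processed. It was dim in SJL at 0 h, at 5.48, 9.86 and 4.55, and reached 324, 107 and 53.3 at 3 h and 24.8, 36.7 and 90.3 at 6 h. In SMJ it was 33.5, 92.1 and 67.2 at 0 h, 42.4, 10.97 and 51.9 at 3 h, and 54.4, 18.8 and 54.0 at 6 h. All DBA and C57 arrays lay between 4.43 and 38.7. Both SJL groups after the dose, and C57 at 6 h, lay wholly above their own strain at 0 h. The log2 change in SJL was 3.79 ± 0.66 at 3 h (adjusted p = 3.88e-04) and 2.35 ± 0.66 at 6 h (adjusted p = 0.027). Most SJL signals at 0 h lie close to the added offset of 2.77, and with an offset of 16 the log2 change at 3 h was 2.66, while the mean of both probe sets gave 2.15. Before the dose Nfkb2 was the only member that differed between strains (moderated F, adjusted p = 0.00825, where 26.5% of all genes passed), with SMJ highest, and this call was lost without SMJ57.

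A second Nfkb2 probe set, of a kind that can bind other transcripts, was at 37.1, 52.8 and 35.8 in SJL at 0 h and 87.9, 49.5 and 49.1 at 3 h. Its log2 change was 0.51 ± 0.38 with adjusted p = 0.497 over 30393 probe sets, so the 2 probe sets of Nfkb2 disagree in size and in call.

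Relb encodes the partner of p52. Its single probe set read 28.1, 12.9 and 21.0 in SJL at 0 h and 288, 40.8 and 6.49 at 3 h, so that 1 mouse, SJL39, was far above and another, SJL42, below every SJL array at 0 h. In SJL at 6 h it read 14.1, 18.4 and 79.2. In the other 3 strains all arrays lay between 8.79 and 56.6. The SJL change at 3 h did not pass (log2 1.12 ± 0.74, adjusted p = 0.393). It turned on single mice: without SJL42 it was 2.32 with adjusted p = 0.0196, without SJL39 it was -0.17, and with array weights it was 0.10 (adjusted p = 0.969).

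Among the IκB family genes, Bcl3 encodes a nuclear IκB protein that works with p50 and p52 dimers. Its SJL signals were 168.97, 71.8 and 204 at 0 h, 1729, 1582 and 529 at 3 h, and 394, 506 and 1218 at 6 h. In SMJ they were 165, 254 and 281 at 0 h, 231.2, 217 and 483 at 3 h, and 947, 853 and 709.6 at 6 h. The rise came at 3 h in SJL and at 6 h in SMJ. In DBA they were 165, 436 and 184 at 0 h, 207, 251.2 and 50.6 at 3 h, and 346, 603 and 326 at 6 h. The 9 C57 arrays stayed between 87.2 and 192. Bcl3 was thus above all its 0 h arrays at both times in SJL and at 6 h in SMJ, and at no time in DBA or C57. The SJL change was 8.19-fold at 3 h (log2 3.03 ± 0.54, adjusted p = 5.13e-04) and 4.53-fold at 6 h (2.18 ± 0.54, 0.0124). SMJ passed at 6 h (3.62-fold, log2 1.86 ± 0.54, adjusted p = 0.0146), and DBA (0.78 ± 0.54, 0.406) and C57 (-0.18 ± 0.54, 0.886) did not. The SMJ call was lost without SMJ56 (adjusted p = 0.0609) or SMJ101 (0.0509). For the mean of strains at 6 h the log2 change was 1.16 ± 0.27 with adjusted p = 0.00145.

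Nfkbia encodes IκBα, the classical NF-κB inhibitor and feedback target, and was bright on every array. It read 2377, 3412 and 2607 in SJL at 0 h, 5256, 3727 and 3323 at 3 h, and 3343, 3007 and 4677 at 6 h, and both later groups overlapped the first. In DBA it read 1565, 2071 and 2027 at 0 h, 2396, 1877 and 2386 at 3 h, and 2849, 3465 and 3045 at 6 h, where the groups at 0 h and 6 h did not overlap. SMJ and C57 arrays lay between 2036 and 3076 throughout. DBA at 6 h was the only strain and time to pass (1.66-fold, log2 0.73 ± 0.19, adjusted p = 0.00943), and it did not pass without DBA113 (adjusted p = 0.0711) or DBA168 (0.0565). In SJL at 3 h the log2 change was 0.54 ± 0.19 with adjusted p = 0.065. The mean of strains at 6 h passed narrowly (0.24 ± 0.09, adjusted p = 0.0482) and kept its call in 21 of 47 alternatives, with adjusted p from 0.00933 to 0.298. With all probe sets tested together, 3 of the 5 Nfkbia probe sets passed at 6 h, with log2 changes of 0.46, 0.47 and 0.43, and the other 2, at 0.24 and 0.22, did not.

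Nfkbie, which encodes IκBε, was dim, between 18.1 and 70.5 over all 36 arrays. SJL at 3 h gave the highest group, 70.5, 58.7 and 46.0 against 44.04, 31.8 and 35.8 at 0 h, without overlap but not past the test (log2 0.61 ± 0.30, adjusted p = 0.223). Its other probe set read 166.02, 80.2 and 23.4 in SJL at 3 h and 22.2, 26.5 and 30.3 at 0 h.

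Tnfaip3 encodes A20, a ubiquitin-editing enzyme that shuts off signalling from the TNF receptor to the IκB kinase. In SJL it read 43.9, 62.3 and 51.9 at 0 h, 1017, 410.0 and 95.7 at 3 h, and 89.2, 62.2 and 424 at 6 h. In SMJ it read 55.6, 108 and 101.4 at 0 h, 44.6, 64.2 and 244 at 3 h, and 315, 172 and 159.3 at 6 h. In both strains 1 mouse stood far above its group at 3 h, SJL39 and SMJ98. In DBA it read 39.6, 54.4 and 14.3 at 0 h, 55.6, 58.6 and 62.4 at 3 h, and 121, 108 and 99.0 at 6 h. In C57 it was between 55.5 and 57.7 at 0 h and read 46.2, 57.3 and 44.03 at 3 h and 78.9, 87.7 and 68.7 at 6 h. At 6 h the groups of SMJ, DBA and C57 lay wholly above their own 0 h arrays, and SJL overlapped by 1 mouse.

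For the mean of strains at 6 h, Tnfaip3 was 2.26-fold higher (log2 1.17 ± 0.32, adjusted p = 0.00583), and no strain alone passed at that time. With the mean of both probe sets this call was lost (log2 0.87, adjusted p = 0.0888). In SJL at 3 h it was 6.30-fold higher (log2 2.65 ± 0.65, adjusted p = 0.00824), a call that was lost without SJL39 (log2 1.88, adjusted p = 0.0696), with array weights (2.00, 0.0667) and with the mean of both probe sets (1.74, 0.175). The other Tnfaip3 probe set was dimmer and gave 0.82 ± 1.02 (adjusted p = 0.728) in SJL at 3 h.

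Birc3 encodes the ubiquitin ligase cIAP2, which acts beside the TNF receptor. In SJL it read 321, 262 and 264 at 0 h, 926, 193 and 292 at 3 h, and 243, 176 and 381 at 6 h. In SMJ it read 228, 248 and 167 at 0 h, 255, 353 and 293 at 3 h, and 385, 340.0 and 361 at 6 h, so that both later SMJ groups lay above the first. No strain passed at either time. The SMJ change at 6 h was log2 0.77 ± 0.35 with adjusted p = 0.129, and the SJL change at 3 h, where SJL39 alone stood out, was 0.41 ± 0.35 with adjusted p = 0.544.

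SJL, the strain named resistant, gave the most member calls at 3 h. In SJL 5 of 9 members passed as higher, where 4.47% of all genes did: Nfkb2, Bcl3, Tnfaip3, Nfkbiz and Rela. The median change of the members was log2 1.12, beside -0.0508 over all genes tested. In SMJ and DBA only Nfkbiz passed at 3 h, where 0.164% and 1.05% of genes did, and in C57 none did (0.206% of genes; 2 members had an unadjusted p under 0.05 by limma). The members' medians at 3 h were -0.0337 in SMJ, 0.149 in DBA and -0.00862 in C57. Counted without a model, 6 of 9 members in SJL at 3 h had all 3 arrays above all 3 at 0 h, where 9.65% of all genes did. The count was 2 in SMJ (7.55%), 2 in DBA (7.97%) and 1 in C57 (7%), where Nfkbie lay wholly below instead (8.73%).

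At 6 h the count of calls was 4 in SJL (3.66% of genes), 2 in SMJ (8.79%), 2 in DBA (4.82%) and 1 in C57 (4.4%). The 4 in SJL were Nfkbiz, Bcl3, Nfkb2 and Rela. The Rela call (log2 0.58 ± 0.18, adjusted p = 0.0468) held in 16 of 47 alternatives and the Nfkb2 call in 40. Without SJL48 only Nfkbiz was left, without SJL45 or SJL4 only Nfkbiz and Bcl3, and without SJL2 only Nfkbiz and Nfkb2. Members wholly above their 0 h arrays numbered 4 in SJL (11% of genes), 5 in SMJ (15.1%), 4 in DBA (11.6%) and 3 in C57 (15%).

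**Figure D3:**
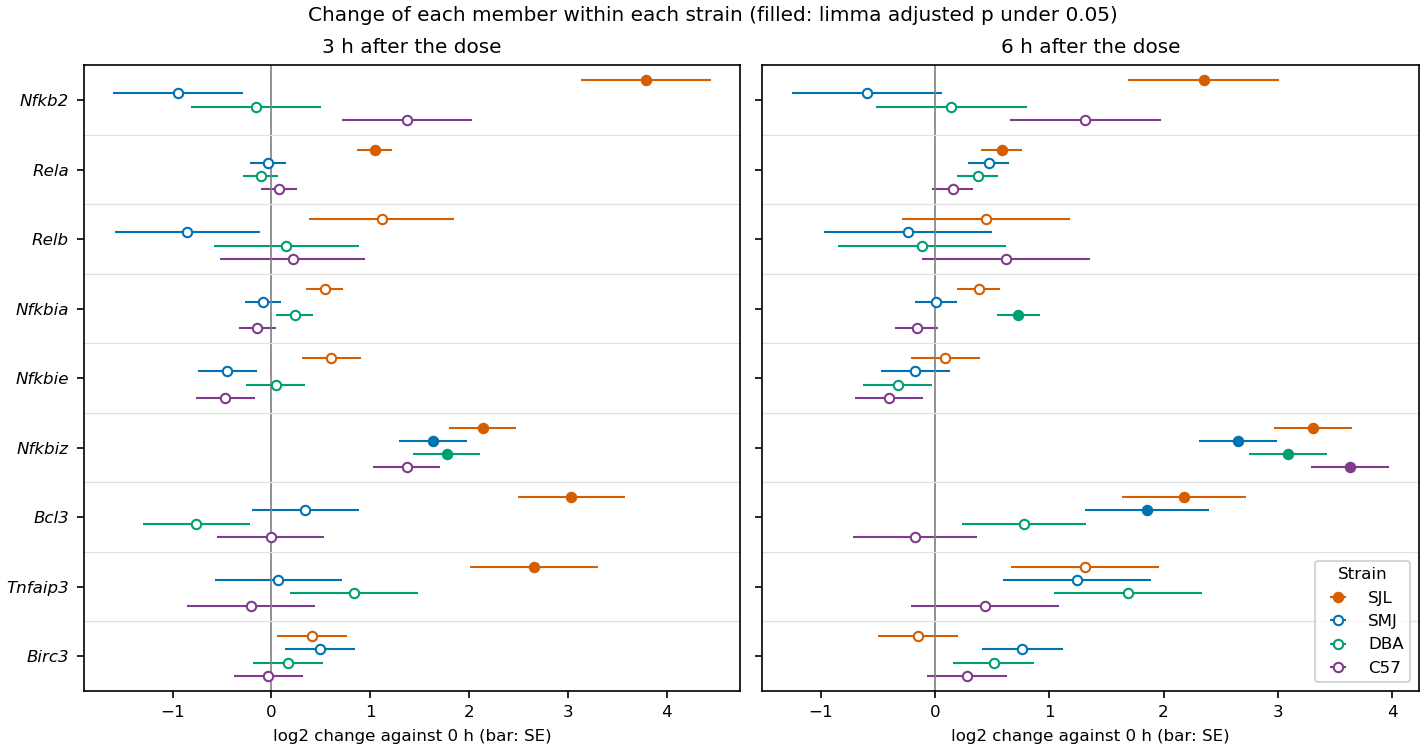
The x axis is the log2 change against the same strain at 0 h, with a bar of 1 SE on each side, for every member (rows) and strain (colours) at 3 h (left) and 6 h (right); filled points passed at an adjusted p under 0.05. At 3 h the filled points are 5 for SJL and only Nfkbiz for SMJ and DBA, and at 6 h Nfkbiz is filled in all 4 strains.

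The difference between strains was tested directly. At 3 h the response of 3 of 9 members differed between strains by a moderated F test, where 1.95% of all genes did: Nfkb2 (adjusted p = 0.0163), Bcl3 (0.0216) and Rela (0.0246). Tnfaip3 (0.232) and Nfkbiz (0.794) did not pass. Against the mean response of the other 3 strains, SJL was higher by log2 3.69 ± 0.76 for Nfkb2 (adjusted p = 0.00482), 3.18 ± 0.63 for Bcl3 (0.00363) and 1.07 ± 0.21 for Rela (0.00318), where 2.16% of genes were called higher. For Tnfaip3 the difference was 2.42 ± 0.75 with adjusted p = 0.0606, and for Nfkbiz 0.55 ± 0.39 with a 95% interval from -0.27 to 1.36. At 6 h neither test called a member: 0 of 9 by F, where 5.35% of genes passed and 3 members had an unadjusted p under 0.05, and 0 of 9 for SJL against the others, where 0.27% did and 2 had one.

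The SJL calls at 3 h rest on a spread pooled over all 12 groups, and the 3 SJL mice differed widely among themselves. With the 6 SJL arrays fitted alone, 0 of 9 members passed. Of the 14057 genes, 6 passed in either direction (0.0427%) and 5 as higher (0.0356%). The adjusted p by limma was 0.118 for Nfkb2, 0.179 for Rela, 0.0859 for Nfkbiz, 0.129 for Bcl3 and 0.236 for Tnfaip3. Without SJL42 the count rose to 7, with Relb and Nfkbia added, and the members for which SJL differed from the other strains rose from 3 to 5. The F test kept only Nfkb2 when SJL39, SJL40 or SJL2 was left out, while SJL against the other strains kept Nfkb2, Rela and Bcl3 in each of those fits.

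Within several groups 1 mouse held the highest signal for most members. SJL39 had the highest signal of its 3 mice for 9 of 9 members, against 30.5% of all genes, and it was the lowest for 43.1% of all genes. SJL42 was the lowest for 7 of 9 members, against 27% of all genes. At 6 h SJL48 was highest for 8 of 9, against 35.5%, the exception being Nfkbiz, for which it was the lowest. SMJ98 was highest for 7 of 9 at 3 h, against 29.9%, and before the dose DBA114 was highest for 8 of 9, against 34.2%. These mice were picked after their values were seen, and the counts carry no test.

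SMJ98, SJL48, SJL39 and SJL42 stood out also for 24 target genes of NF-κB, a list apart from the members. SMJ98 was highest for 20 of 24 and lowest for 0, SJL48 was highest for 16, SJL39 was highest for 14, and SJL42 was lowest for 17. The summed signal of 9 neutrophil markers was 2398 in SJL39, 2170 in SJL40 and 1092 in SJL42 at 3 h, against 436.9 to 952.5 at 0 h. S100a8 and S100a9 were large parts of it, and were higher in SJL39 than in SJL40 (1000 against 881, 954 against 821). Mmp8 (61.0 against 92.1) and Cxcr2 (5.74 against 44.8) were lower. The sum was 2606 in SJL48 against 691.3 and 567.2 in SJL44 and SJL45, and 1245 in SMJ98 against 199 and 387.3 in SMJ95 and SMJ96. Before the dose it was 386.6 in DBA114 against 249.2 and 285 in DBA113 and DBA115. The part of infiltrating cells in the members' values was not tested.

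**Figure D4:**
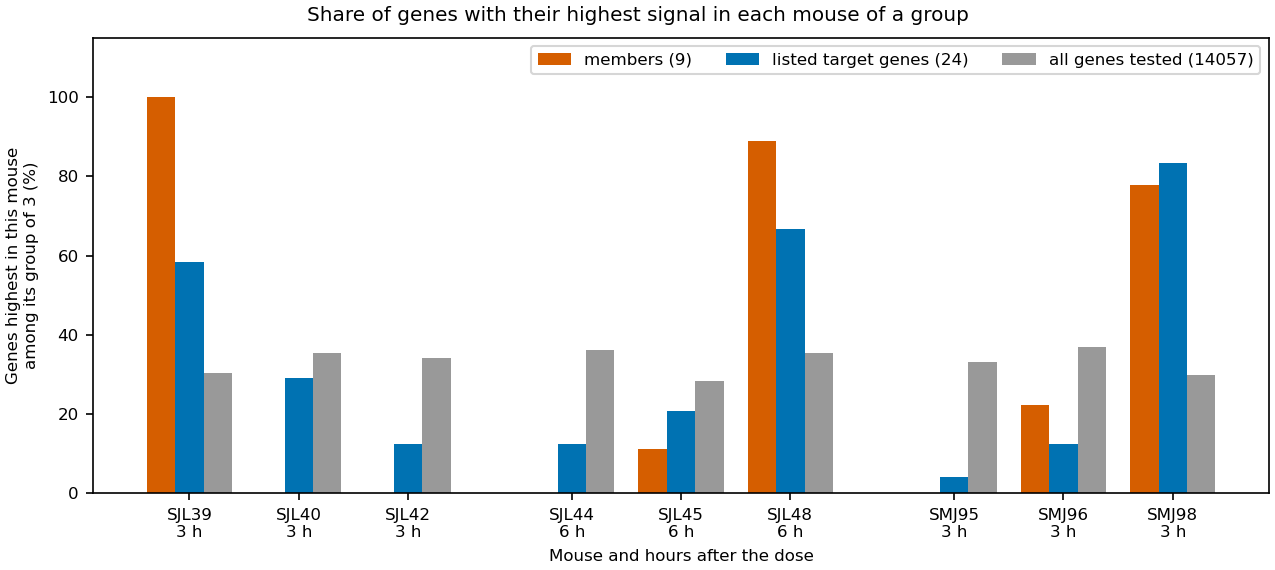
Bars give, for each mouse drawn, the percent of genes whose highest signal among the 3 mice of its group was in that mouse. The sets are the 9 members, 24 target genes and 14057 genes tested. Only the mice of SJL at 3 h and 6 h and of SMJ at 3 h are drawn, so DBA114 is not shown. SJL39 reaches 100% of members and SJL48 88.9%, while for all genes they hold 30.5% and 35.5%.

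**Figure D5:**
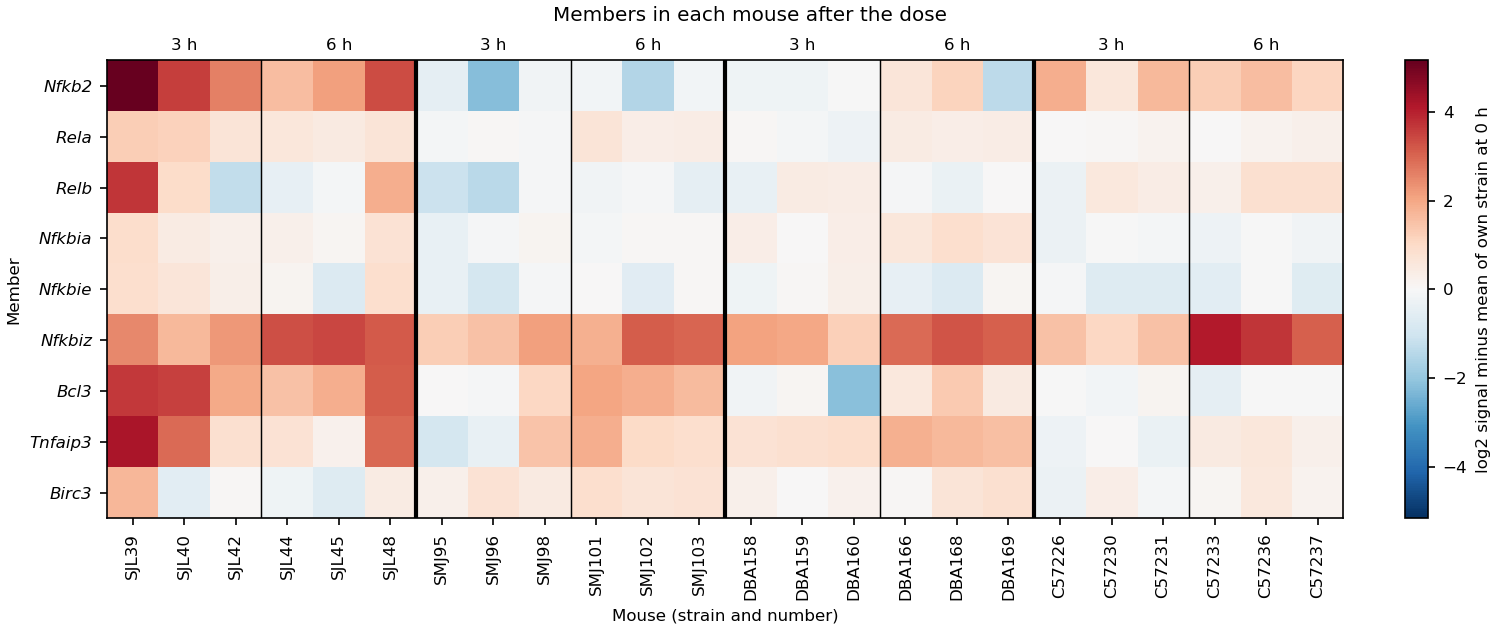
Colour gives the log2 signal of a member (rows) in each mouse after the dose (columns) minus the mean of its own strain at 0 h, with red above and blue below. Nfkbiz is red in all 24 mice, and in the SJL block the columns of SJL39 and SJL48 are red for all 9 members.

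Levels of other cell types are given beside these results for the whole marker lists. For the mean of strains at 6 h, 12.7% of all genes rose and 20.4% fell. In SJL at 3 h 4.47% of all genes rose. With an offset of 1, 795 of 14057 genes fell there. Of 9 neutrophil markers, 5 rose at 6 h for the mean of strains, with S100a8 at log2 2.58 and S100a9 at 2.53, and 1, Mmp8, passed in SJL at 3 h (log2 2.29). Of 13 Kupffer cell and macrophage markers, 5 rose at 6 h for the mean of strains, but in SJL at 3 h none rose and 5 fell, and their summed signal was 5994 to 7458 there against 8319 to 9863 at 0 h. Of 11 endothelial markers, 8 rose at 6 h for the mean of strains, and 2 fell in SJL at 3 h. Their summed signal at 6 h was 6450 to 6859 in C57, against 3968 to 5008 at 0 h. It was 3783 to 3990 in SMJ against 3287 to 3721, and 3915 to 4027 in DBA against 3336 to 3728. In SJL the ranges overlapped, 4649 to 5243 against 4664 to 5037. Of 7 hepatocyte markers, 5 rose at 6 h and 1 fell in SJL at 3 h. Of 6 lymphocyte markers 0 passed by limma in either comparison, and 1 had an unadjusted p under 0.05 in SJL at 3 h. In whole liver, fewer cells of a type and less RNA per cell cannot be told apart, and the part of these shifts in the members' changes was not tested.

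The rest of the pathway was followed in lists of ligands, receptors, signalling proteins, other family members, other inhibitors and target genes. Beside every list, 12.7% of all genes rose and 20.4% fell at 6 h for the mean of strains. In SJL at 3 h 4.47% of all genes rose. Of 7 ligands tested, 1 rose at 6 h for the mean of strains, a share near that of all genes. It was Il1a, the gene of interleukin 1α (log2 1.21 ± 0.21, limma adjusted p = 7.2e-05). Il1b was at 0.89 ± 0.35 (adjusted p = 0.0548) and Tnf at -0.42 ± 0.34 (0.376), so neither passed. Of 12 receptors, 4 rose and none fell: Tnfrsf12a, the receptor of TWEAK (log2 3.20 ± 0.19), Il1r1, the interleukin 1 receptor (1.21 ± 0.22), Tlr4, which senses lipopolysaccharide (0.98 ± 0.28), and Tnfrsf1a, the main TNF receptor (0.62 ± 0.08). In SJL at 3 h, 3 receptors rose, Tnfrsf12a among them by log2 3.48 ± 0.37.

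Of 21 adaptors and kinases, 6 rose and 3 fell at 6 h, with a median of -0.0819 close to that of all genes. The share that fell was below the 20.4% of all genes. Map3k14, which encodes the kinase NIK of the slower NF-κB branch, rose by log2 0.65 ± 0.16 and in SJL at 3 h by 1.16 ± 0.32. Irak2, a kinase of interleukin 1 receptor signalling, rose by 0.69 ± 0.12, while Tab2, an adaptor of the kinase TAK1, fell by 0.41 and Tradd, an adaptor of the TNF receptor, fell by 0.44 on the log2 scale. Of the other 3 family genes, Rel, which encodes the subunit c-Rel (1.46 ± 0.27), and Nfkbib, which encodes IκBβ (0.32 ± 0.09), rose at 6 h, and Nfkbid did not pass (-0.18 ± 0.32). Nfkbib also rose in SJL at 3 h, by 0.98 ± 0.18 (adjusted p = 5.55e-04).

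Of 10 other inhibitors, 3 rose and 1 fell at 6 h: Tnip2, an A20-binding protein (log2 0.79 ± 0.24), Zc3h12a, the RNase Regnase-1 (0.78 ± 0.16), and Rnf11 (0.16 ± 0.06) rose, and Itch, a ubiquitin ligase that works with A20, fell by 0.73. Of 24 target genes, 14 rose and 2 fell at 6 h, with a median of 0.735. In SJL at 3 h 9 rose and 1 fell, with a median of 1.94, where 4.47% of all genes rose. The neutrophil chemokine gene Cxcl2 was up by log2 4.46 ± 0.41 at 6 h, Ier3 by 3.38 ± 0.19 and Myc by 2.60 ± 0.16, and Xiap fell by 0.57. Many of these targets answer to other factors too.

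Genes with the pattern most like that of each member were ranked by Pearson correlation over the 12 group means of log2 signals, as a description with no test, and all points share the same 36 arrays. Rela was nearest to Nfkbib (r = 0.96), Mlx (0.959) and Nolc1 (0.949). Nfkbiz was nearest to Zfand5 (0.97), Ppp1r15a (0.967) and Rnd3 (0.947), and Tnfaip3 to Tnip2 (0.937), Taf4b (0.93) and Smn1 (0.928). Bcl3 was nearest to Snx18 (0.92), Nfkbia to Il17ra (0.927), Nfkbie to Atxn7l3 (0.933), Birc3 to Ddost (0.922), Nfkb2 to Fam53c (0.878) and Relb to Med7 (0.856). Among the members themselves the closest pairs were Rela with Tnfaip3 (0.922), Rela with Bcl3 (0.913), Bcl3 with Tnfaip3 (0.873) and Nfkb2 with Relb (0.865), and the least alike were Nfkbie and Nfkbiz (-0.0823).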

How the data were processed

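The deposited values are MAS5 signals, a linear intensity per probe set computed by the authors, per the submitters' processing notes; the version is not given in the sources used here. Detection calls were not used. To each signal 2.77, the 10th percentile of all values, was added before log2. GEO's platform annotation gave 34945 of the 45101 probe sets a single symbol, 932 several and 9160 none, and the other 64 were controls. A gene was represented by its probe set with the highest mean, passing over names ending in _x_at unless there was no other, and was tested if at least 3 arrays exceeded 30.8, the median of all values. This left 14057 of 18193 genes. The 12 group means were fitted on 36 arrays with limma 3.58.1 in R 4.3.3 (24 residual degrees of freedom), with two-sided tests and Benjamini-Hochberg adjustment over all genes tested, at a threshold of 0.05. The labels give no batch. Each array is a separate mouse. The procedure was tested on simulated data, drawn for each gene with the same spread in all 12 groups. That simulation could not show whether a pooled spread suits SJL at 3 h.

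The members and the gene lists were chosen with earlier results of these data known. All members were named. Of each list, up to 4 genes with the smallest p for the mean change at 6 h were named, with Tnf, Il1b, Rel, Nfkbib and Alb, and the 3 genes most like each member. The alternatives were other offsets, scalings, filters, probe set rules, variance models and samples in the fit, and leaving out each array.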

Additional observations from a re-analysis of the deposited data

Results flagged for a closer look

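For 3 members the change at 3 h differed between strains by the F test, where 1.95% of all genes did. For Nfkb2 the moderated F test gave adjusted p = 0.0163, and the response in SJL exceeded the mean of the other strains by log2 3.69. For Bcl3 the values were 0.0216 and 3.18. For Rela they were 0.0246 and 1.07. All 3 SJL arrays at 3 h lay above all 3 at 0 h for each of these genes, as for 9.65% of all genes. The test was limma in each case. The F calls of Bcl3 and Rela were lost when SJL2, SJL39 or SJL40 was left out. The count of F calls also fell with only the groups compared in the fit.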

How the results depend on the processing

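No paired analysis was possible because each mouse has its own number and no 2 groups share one. No called change reversed under any alternative tried, and none moved the median change of all genes by over 0.1. For the mean of strains at 3 h, 1 call became 2 with quantile normalization, with a filter of 12 arrays and with an intensity trend and robust variances. With only the groups compared in the fit, calls fell from 5 to 0 in SJL at 3 h, 4 to 1 in SJL at 6 h, 1 to 0 in SMJ and in DBA at 3 h, 2 to 1 in DBA at 6 h, and 3 to 1 for the F test at 3 h. Fewer arrays entered these fits. Among all genes they called as higher 0.0356% at 3 h and 1.49% at 6 h in SJL, and 0% in SMJ at 3 h. In DBA they called as higher 0.498% at 3 h and 1.88% at 6 h, and the F test at 3 h called 1.17%. The mean of a gene's probe sets left 2 in SJL at 6 h, and no filter left 0 in SMJ at 3 h. Array weights gave 1 in C57 at 3 h and 2 for the F test at 6 h, against 0 each. The F test at 0 h gave 1, and 2 with the filter of 12 arrays or the mean of probe sets, and 3 with array weights or the intensity trend. The cause was not tested elsewhere.

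Leaving out 1 array in turn gave, for the mean of strains, 1 to 4 calls at 3 h, 4 to 7 at 6 h and 1 to 1 between them. It gave 4 to 7 at 3 h and 1 to 4 at 6 h in SJL, 0 to 1 and 1 to 3 in SMJ, 1 to 1 and 1 to 3 in DBA, and 0 to 1 and 1 to 1 in C57. The F test gave 1 to 4 at 3 h, 0 to 0 at 6 h and 0 to 3 at 0 h, and SJL against the others 3 to 5 at 3 h and 0 to 0 at 6 h. The mean of strains at 3 h gave 4 calls without SJL42 and 2 without SMJ96, DBA114, DBA160, DBA169 or C57230. C57 at 3 h gave 1 without SMJ56. The F test at 0 h gave 0 without SMJ57, 3 without SMJ56, and 2 without SJL1, SJL39, SJL42 or DBA114.

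Signals of Nfkb2 in SJL at 0 h, 4.55 to 9.86, lie below the median of all values, 30.8, and neither a background level nor detection calls were used.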
